A study of Mus musculus with 4 samples.

Results

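A set of 9 genes, most of which build or remodel the fiber cell of the ocular lens, was followed in RNA-seq counts of E13.5 mouse retinas, out of 24062 genes counted. They are *Mip*, *Lim2*, *Gja3* and *Gje1* for the fiber cell membrane, *Bfsp1* and *Bfsp2* for its cytoskeleton, and *Capn3*, *Dnase2b* and *Vit*. The genes were selected on their readout in these same libraries, namely the difference between mutant and wildtype and the difference between replicates of a genotype. Their fold changes and replicate ratios are therefore given as a description, with no test. The design had 2 groups, with 2 libraries each. The WT libraries came from wild type embryos, and the Nrf1-CKO libraries from *Nrf1* f/f;*Six3-Cre* embryos (written as an *Nrf1* null in the design text), in which Cre recombinase driven by *Six3* sequences removes the floxed allele of *Nrf1*, a transcription factor gene of mitochondrial and metabolic control, from retinal progenitor cells. All embryos were of a mixed C57BL/6 and 129 background, and each library was a pool of dissected retinas from several littermates.

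Lens fiber cells differentiate from the epithelium at the back of the lens vesicle, elongate, fill with crystallins and finally lose their nuclei and organelles. Their membrane carries the water channel encoded by *Mip*, the tetraspan protein encoded by *Lim2* and gap junctions of connexins, which let water, ions and metabolites pass between cells that have no blood supply. Below the membrane lie beaded filaments, which the intermediate filament proteins filensin (*Bfsp1*) and phakinin (*Bfsp2*) form together. The retina itself is not known to build beaded filaments, and in the embryo it lies directly behind the lens.

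The sequences in front of 4 of the genes are shown because their WT replicates fell into 2 sorts, described further on, with *Mip* and *Lim2* in one and *Bfsp1* and *Bfsp2* in the other. This choice was made after the values were seen. Each window runs 5′ to 3′ on the strand of its gene, from 220 bases before to 30 bases after the start in RefSeq (GRCm38.p6). Capitals mark the letters of the motifs searched, on either strand. The letters TGCTGA, which form the half-site of MAF factors, were searched first. Next came CATTGT, read by SOX factors, and GAANNTTC, read by heat shock factors. The letters TGANTCA belong to AP-1 and its relatives. The TATA box was searched as TATAAA, and the core of the NRF1 site as GCGCATGC.
*Mip* (chr10:128225590-128225839, plus strand): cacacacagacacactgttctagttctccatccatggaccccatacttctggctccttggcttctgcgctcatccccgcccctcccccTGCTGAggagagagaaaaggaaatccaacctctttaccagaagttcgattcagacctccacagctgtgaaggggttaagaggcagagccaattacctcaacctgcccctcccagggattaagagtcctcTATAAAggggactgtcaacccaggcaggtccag
*Lim2* (chr7:43429879-43430128, plus strand): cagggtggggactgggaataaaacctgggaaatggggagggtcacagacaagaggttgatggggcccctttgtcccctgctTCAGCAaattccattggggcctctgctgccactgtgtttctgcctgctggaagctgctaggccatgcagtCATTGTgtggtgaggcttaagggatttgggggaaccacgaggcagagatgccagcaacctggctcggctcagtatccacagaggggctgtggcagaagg
*Bfsp1* (chr2:143863144-143863393, minus strand): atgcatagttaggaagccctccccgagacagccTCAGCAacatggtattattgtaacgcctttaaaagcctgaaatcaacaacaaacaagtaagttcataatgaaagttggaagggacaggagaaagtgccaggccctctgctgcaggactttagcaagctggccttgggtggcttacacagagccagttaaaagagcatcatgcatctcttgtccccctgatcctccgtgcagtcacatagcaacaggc
*Bfsp2* (chr9:103449147-103449396, minus strand): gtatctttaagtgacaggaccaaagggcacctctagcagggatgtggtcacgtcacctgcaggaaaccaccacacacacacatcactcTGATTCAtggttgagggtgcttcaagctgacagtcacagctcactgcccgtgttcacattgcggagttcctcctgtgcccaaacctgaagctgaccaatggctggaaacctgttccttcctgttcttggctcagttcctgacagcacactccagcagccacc
The window of *Mip* held TGCTGA 132 bases before the start and TATAAA beginning 3 bases before it, that of *Lim2* held TGCTGA on the other strand and CATTGT, and that of *Bfsp1* held TGCTGA on the other strand. The window of *Bfsp2* held only the AP-1 letters. Starts in RefSeq were found for 7 of the 9 genes, with 9 windows in all, since *Gja3* and *Capn3* have 2 starts each. TGCTGA was in 5 of these 9 windows, those of *Mip*, *Lim2*, *Bfsp1* and both of *Capn3*, and in 16.6% of all 32851 windows of the same length. CATTGT was in windows of *Lim2* and *Capn3* (10.7% of all windows), TATAAA in those of *Mip* and *Gja3* (11.7%) and TGANTCA in that of *Bfsp2* (6.68%). GAANNTTC and GCGCATGC were in none of the 9, and in 6.6% and 2.48% of all windows. A match is a description of the letters and not a bound site.

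Between 74577660 and 85933945 reads per library were counted on genes. *Nrf1* had 9052 and 7789 reads in WT and 8594 and 8284 in Nrf1-CKO and a log2 fold change of -0.03 (adjusted p = 0.794 by edgeR's quasi-likelihood test, adjusted after Benjamini and Hochberg), so a count over the whole gene did not separate the labels. The retinal label was borne out in all 4 libraries, in which 10 genes of retinal progenitors, led by *Ccnd1*, *Sfrp2* and *Fgf15*, summed to between 6253 and 8603 CPM (counts scaled to the size and TMM factor of each library). Genes of the lens were also present in every library. The 16 crystallin genes summed to 205.9 and 515.8 CPM in WT and to 11180 and 4417 in Nrf1-CKO. Since whole pools were sequenced, more lens cells in a pool and more RNA per cell cannot be told apart.

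The 8 genes with reads summed to 28.5 and 51.4 CPM in WT replicates 1 and 2, and to 1019 and 353 CPM in Nrf1-CKO replicates 1 and 2. In each of the 8 the groups did not overlap, with Nrf1-CKO above WT, as in 30.9% of the 15762 genes tested. The genes were picked for this contrast, so nothing is read from it. Values are given in the order WT replicate 1, WT replicate 2, Nrf1-CKO replicate 1 and Nrf1-CKO replicate 2. Standard errors are those of the edgeR fit over all genes.

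*Mip* (GRCm38 chromosome 10, 128225838 to 128231812) had 189, 651, 22511 and 6215 reads. The lower mutant library stood 8.56-fold above the higher wildtype library in CPM. The mean CPM was 5.47 ± 4.68 in WT and 173 ± 139 in Nrf1-CKO (SD, n = 2), and the log2 fold change was 5.0 (standard error 0.71). *Lim2*, which encodes an abundant integral protein of the fiber membrane, lies on chromosome 7 from 43427670 to 43435996 and had 53, 241, 6951 and 2386 reads. The mean CPM was 1.93 ± 1.87 in WT and 56.3 ± 38.8 in Nrf1-CKO (SD, n = 2), and its log2 fold change was 4.91 (standard error 0.68). For both genes the replicates of a genotype stood far apart, in WT as in Nrf1-CKO.

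Both connexin genes encode gap junction proteins of lens fibers. *Gja3*, on chromosome 14 from 57034460 to 57058100, had 75, 266, 5660 and 2280 reads, and its log2 fold change was 4.46 (standard error 0.59). *Gje1*, a small connexin gene in which mutation disturbs lens development in mice, lies on chromosome 10 from 14715623 to 14718214 and had 26, 97, 3291 and 953 reads. It was the least abundant of the 8 in WT, at 0.802 ± 0.715 CPM (SD, n = 2), and reached 25.6 ± 19.9 CPM in Nrf1-CKO. Its log2 fold change of 5.03 (standard error 0.69) lay within 1 standard error of those of *Mip*, *Lim2* and *Gja3*.

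The beaded filament genes encode the partners of one structure. *Bfsp1*, on chromosome 2 from 143826528 to 143863173, had 211, 234, 2033 and 775 reads. Its mean CPM was 2.78 ± 0.527 in WT and 16.9 ± 10.7 in Nrf1-CKO (SD, n = 2). Its log2 fold change of 2.61 (standard error 0.39) was the lowest of the 8, and its lower mutant library stood 2.97-fold above its higher wildtype library. *Bfsp2*, the partner of *Bfsp1* in the filament, lies on chromosome 9 from 103424924 to 103480420. It had 261, 283, 4097 and 1872 reads, and its log2 fold change was 3.41 (standard error 0.33). In WT the reads of *Bfsp1* and *Bfsp2* were like those of *Mip* in replicate 1, whereas *Mip* had far more than either in both Nrf1-CKO libraries.

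*Capn3* encodes a calpain protease with splice forms in lens and in skeletal muscle. It lies on chromosome 2 from 120456019 to 120504913 and had the most reads of the 9 genes in every library, 1475, 1821, 36711 and 13304. Its mean CPM was 20.7 ± 5.45 in WT and 301 ± 199 in Nrf1-CKO (SD, n = 2), and its log2 fold change was 3.87 (standard error 0.42). Markers of skeletal muscle moved with the genotype too, led by *Myh3* at 7.54, 2.99, 56.0 and 9.26 CPM. *Actc1* had 2.98, 0.917, 23.8 and 5.78 CPM, and *Acta1* had 1.71, 0.782, 11.0 and 2.83 CPM. *Ckm* of mature muscle, named after its values were seen, stayed at 0.133 CPM or below and had 0 reads in WT replicate 2. Of 10 muscle genes, 8 were tested and all 8 were called higher, but only 4 without Nrf1-CKO replicate 1 and 5 without WT replicate 2. Their summed level was 15.3, 6.03, 105.5 and 21.6 CPM, so it was lower in WT replicate 2 than in WT replicate 1, whereas *Capn3* was higher in replicate 2. The part of muscle RNA in the *Capn3* counts was not tested, since counts per gene do not separate its splice forms.

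*Vit* encodes vitrin, a protein of the extracellular matrix, so the name of the set does not describe it. On chromosome 17 from 78508064 to 78627408, it had 208, 221, 3363 and 1408 reads. Its log2 fold change was 3.43 (standard error 0.37). *Dnase2b*, the nuclease gene that degrades the DNA of fiber cell nuclei at the end of differentiation, lies on chromosome 3 from 146580985 to 146615596. It had 0 reads in every library, which allows at most 3 reads, or between 0.0343 and 0.0404 CPM, and so it was neither fitted nor given a fold. It was among 5436 genes, 22.6% of the table, without a read in any library. These limits cover counting error only, since copies made by PCR are not independent molecules.

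The remaining exon context limits 3 of the values. In GENCODE, exons of *Mip* share 1223 bases with *Gm26847* and those of *Bfsp2* share 201 bases with *5830418P13Rik*, both on the other strand, and those of *Capn3* share 386 bases with *Ganc* on the same strand. The strand setting of the counting is not given in the sources used here. *5830418P13Rik* had between 2 and 11 reads in the 4 libraries, and *Ganc* between 677 and 1204.

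**Figure D1:**
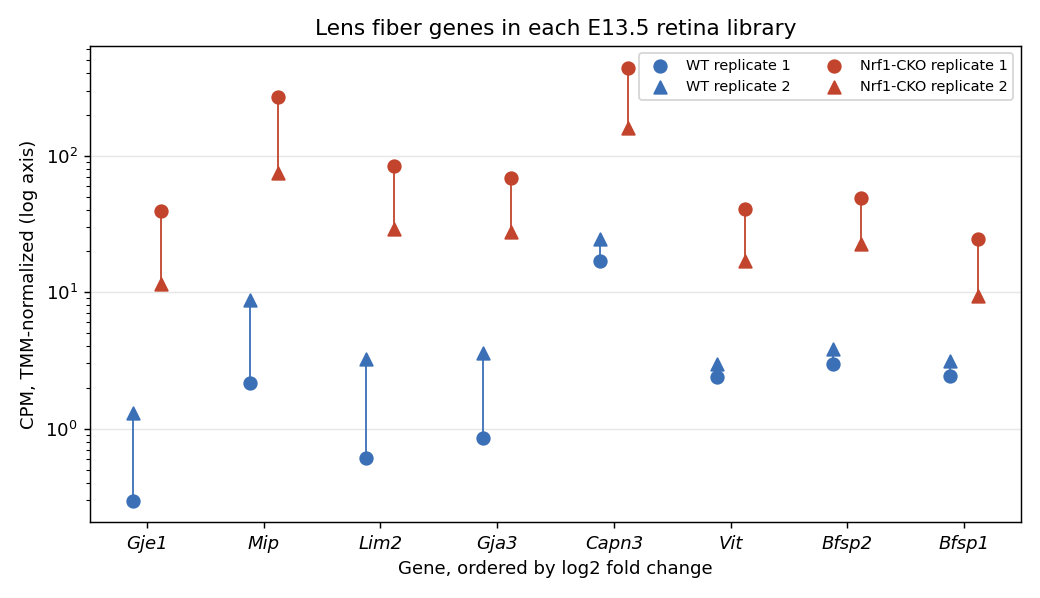
CPM (counts scaled to library size and TMM factor, log axis) of the 8 lens fiber genes with reads in each of the 4 libraries, blue for WT and red for Nrf1-CKO, with circles for replicate 1, triangles for replicate 2 and a line joining the replicates of a genotype. For every gene both red symbols lie above both blue ones, and the blue lines are long for *Gje1*, *Mip*, *Lim2* and *Gja3* and short for the other genes.

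The plot of CPM by library shows the 8 genes in order of their log2 fold change, which had a median of 4.16 beside 0.0008 over the 15762 genes tested. Genes were called from 1.4-fold upwards where the adjusted p of edgeR's quasi-likelihood test did not exceed 0.2. By this rule all 8 were called higher, as were 12.8% of all tested genes. The groups were separate, with Nrf1-CKO above WT, in 30.9% of all tested genes. The genes were picked for this contrast, so nothing is read from either count. The size of each change hung on single libraries. Without Nrf1-CKO replicate 1 the median fell to 3.31, without WT replicate 1 it was 3.68, and without WT replicate 2 or Nrf1-CKO replicate 2 it was 4.98 or 4.69. For single genes the lowest value came each time from leaving out Nrf1-CKO replicate 1, from 1.75 for *Bfsp1* to 3.93 for *Lim2*. The highest came from leaving out WT replicate 2 for *Mip*, *Lim2*, *Gja3* and *Gje1*, at 6.32, 6.54, 5.80 and 6.42, and from leaving out Nrf1-CKO replicate 2 for *Bfsp1*, *Bfsp2*, *Capn3* and *Vit*, at 3.14, 3.86, 4.42 and 3.92. On the authors' deposited log2 values all 8 were lower than on the counts, at 3.85 for *Mip*, 3.36 for *Capn3*, 3.07 for *Lim2*, 2.82 for *Gja3*, 2.41 for *Gje1*, 2.18 for *Bfsp2*, 2.04 for *Vit* and 1.42 for *Bfsp1*. With 2 pools per genotype, p-values given for other genes measure only the spread between these pools.

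Within each genotype the replicates differed widely in these genes. In WT, replicate 2 exceeded replicate 1 by 4.07-fold for *Mip*, 5.37-fold for *Lim2*, 4.19-fold for *Gja3* and 4.41-fold for *Gje1*, as ratios of CPM. For *Bfsp1*, *Bfsp2*, *Capn3* and *Vit* the same ratio was only 1.31, 1.28, 1.46 and 1.25. Among these 8 genes, the 4 with the wider ratio encode membrane proteins. The 4 with the narrower one encode the filament proteins, the protease and the matrix protein. These sorts were drawn from the ratios themselves, which come from 1 pair of pools, and so were not tested. On the authors' deposited log2 values the median WT ratio of the 8 genes was 1.35 in place of 2.76 and the log2 ratios spanned 0.866 in place of 2.10.

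In Nrf1-CKO, replicate 1 exceeded replicate 2 in all 8 genes. The ratio was lowest for *Bfsp2* at 2.18 (95% interval 2.06 to 2.30) and highest for *Mip* at 3.61 (3.51 to 3.71). *Gje1* and *Lim2*, of the genes with the wider ratio in WT, had 3.44 and 2.90 and lay with *Mip* above the 4 of the narrower ratio, whose highest was *Capn3* at 2.75, whereas *Gja3* had 2.47. On a log2 scale the ratios spanned 2.10 in WT and 0.727 in Nrf1-CKO. A ratio of at least 2 was seen in 4 of the 8 genes between the WT replicates, beside 0.633% of the 13431 genes with a mean of at least 1 CPM, and in 8 of 8 between the Nrf1-CKO replicates, beside 1.21%. The replicate difference was part of how the genes were chosen, so these shares are a description. Over all of the 13431 genes the median ratio was 0.999 in WT and 1.00 in Nrf1-CKO.

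**Figure D2:**
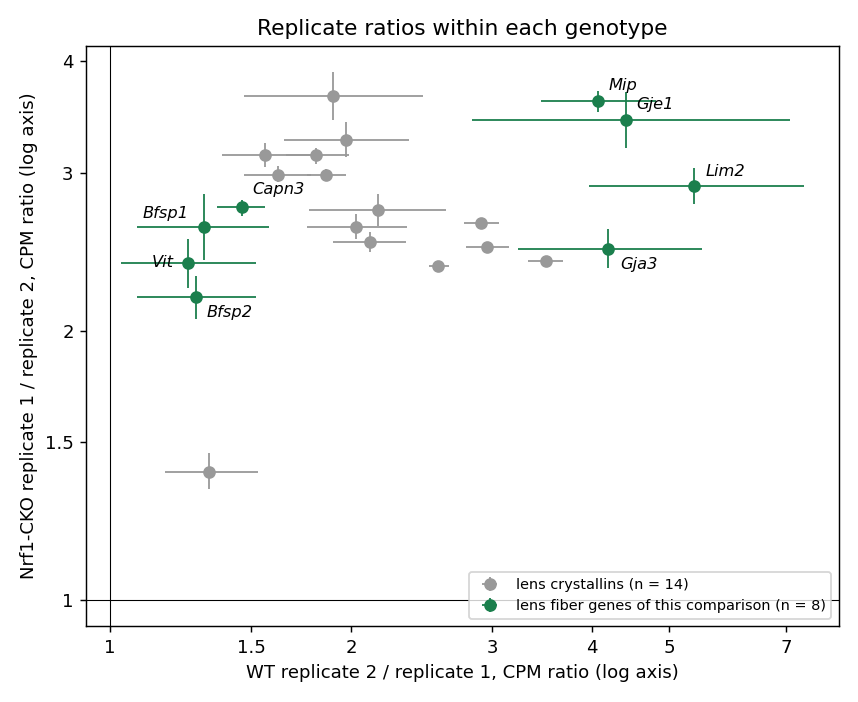
Ratio of CPM between the replicates of Nrf1-CKO (replicate 1 over 2, vertical, log axis) against that between the replicates of WT (replicate 2 over 1, horizontal, log axis) for the 8 lens fiber genes with reads (green) and for 14 crystallin genes with a ratio in both genotypes (grey), with 95% exact binomial intervals for counting error as bars. *Mip*, *Lim2*, *Gja3* and *Gje1* lie at 4.07 or more on the horizontal axis, *Bfsp1*, *Bfsp2*, *Capn3* and *Vit* at 1.46 or less, and all crystallins but *Cryab* between these.

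As the plot of replicate ratios shows, crystallin genes filled the gap between the sorts in WT, with *Cryaa* at 2.57, *Cryba1* at 2.91 and *Crybb3* at 3.50. *Tdrd7* and *Caprin2*, which encode RNA-binding proteins of lens fibers, had 1.19 and 0.876 in WT and 2.26 and 1.80 in Nrf1-CKO.

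The genes were next set against *Mip* within each library, which removes the scaling between libraries. Reads of *Gje1* per read of *Mip* were 0.138, 0.149, 0.146 and 0.153 in the 4 libraries, a range of 1.11-fold while *Mip* itself ranged from 2.16 to 271 CPM. *Lim2* and *Gja3* kept their ratio to *Mip* within 1.37-fold and 1.63-fold. The other 4 genes did not. *Capn3* per *Mip* went from 7.80 in WT replicate 1 to 1.63 in Nrf1-CKO replicate 1, a range of 4.79-fold, and *Vit*, *Bfsp2* and *Bfsp1* ranged over 7.37-fold, 7.59-fold and 12.4-fold. In each of these 4 the ratio was highest in WT replicate 1, the library with the fewest reads of *Mip*, and lowest in Nrf1-CKO replicate 1, the one with the most.

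The differences between libraries were also set against those of *Mip*. From WT replicate 1 to 2, *Mip* gained 6.62 CPM and *Bfsp2* gained 0.835, or 0.126 per CPM of *Mip*. From Nrf1-CKO replicate 2 to 1, *Mip* gained 196 CPM and *Bfsp2* gained 26.7, or 0.136 per CPM of *Mip*. For *Bfsp1* the amounts were 0.113 and 0.0771, for *Vit* 0.0913 and 0.12, and for *Capn3* 1.16 and 1.44. Over the 7 genes the amounts from the 2 genotypes lay within 1.07-fold (*Gje1*) to 1.99-fold (*Gja3*) of each other. For *Lim2* and *Gja3*, at 1.43-fold and 1.99-fold, they were farther apart than the levels per *Mip* over the 4 libraries. These are 2 amounts per gene, whereas the levels span 4 libraries, so the ranges are not directly comparable. The difference of the genotype means gave 0.194 for *Bfsp2*, 0.156 for *Vit* and 1.67 for *Capn3*, above both amounts from replicates. The differences in WT rest on few reads, for example 211 and 234 of *Bfsp1*, and 1 pair of libraries gives each amount, so it has no replicate error.

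**Figure D3:**
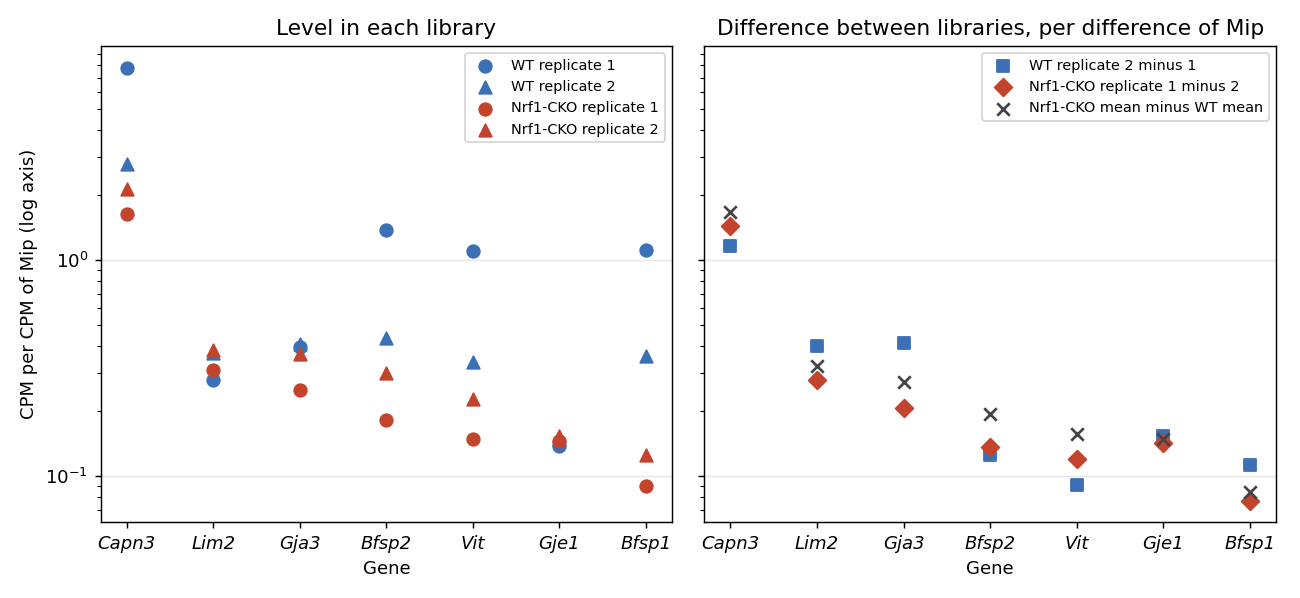
Levels of 7 lens fiber genes per level of *Mip* in the 4 libraries (left, CPM per CPM, log axis), and differences in CPM between libraries per difference of *Mip* on the same axis (right), for the WT replicates (blue squares), the Nrf1-CKO replicates (red diamonds) and the genotype means (black crosses). On the left, *Gje1*, *Lim2* and *Gja3* are spread over 1.11-fold to 1.63-fold and the other 4 genes over 4.79-fold to 12.4-fold, and on the right the square and the diamond differ by 1.07-fold to 1.99-fold, with the cross above both for *Capn3*, *Bfsp2* and *Vit*.

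The plot of levels per *Mip* gives both views on 1 axis. As a share of the summed CPM of the 8 genes, *Capn3* made up 59.0% in WT replicate 1 and between 43.4% and 47.7% in the other libraries. *Mip* made up 7.57% in WT replicate 1, 17.1% in WT replicate 2 and 26.6% and 21.3% in Nrf1-CKO.

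Per length, as RPKM over the merged exons of each gene in GENCODE, the order of the mean levels differed between genotypes. In WT, *Capn3* was highest at 4.12 (3.35 and 4.89 in the 2 libraries), followed by *Mip* at 2.55 (1.01 and 4.09), *Bfsp2* at 2.0 (1.76 and 2.25) and *Bfsp1* at 1.16 (1.01 and 1.32). *Lim2*, *Vit*, *Gja3* and *Gje1* followed at 0.882, 0.830, 0.750 and 0.542, and of all neighbours in the WT order *Bfsp2* and *Bfsp1* alone had ranges that did not overlap. In Nrf1-CKO, *Mip* came first at 80.7 RPKM (126 and 35.0), followed by *Capn3* at 60.0 (88.0 and 32.0) and *Lim2* at 25.8 (38.3 and 13.2). *Bfsp1* came last, at 7.08 (10.2 and 3.92), although 4 genes had lower means in WT. The order also changed between WT replicates 1 and 2, with *Lim2* at 0.277 and 1.49 RPKM and *Bfsp1* at 1.01 and 1.32. All neighbours in the Nrf1-CKO order had overlapping ranges over the 2 libraries. *Mip* stood above *Capn3*, and *Bfsp1* below *Vit*, in each Nrf1-CKO library.

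Genes outside the 9 were ranked by how closely their profile over the 4 libraries followed the median profile of the 8 genes, which was -2.71, -1.46, 2.79 and 1.38 as log2 CPM about its mean. Likeness was the root mean square distance of log2 CPM over 4 libraries, among genes with a mean of at least 1 CPM. The 10 nearest were all crystallin genes, namely *Cryba2* at 0.0746, *Crygc* at 0.116, *Cryaa* at 0.136, and then *Cryga*, *Crygb*, *Cryge*, *Crygf*, *Cryba1*, *Cryba4* and *Crybb1*, the last at 0.242. The 8 genes themselves lay farther from their own median, from 0.340 for *Capn3* to 0.912 for *Bfsp1*, and the median distance of all genes was 2.20. *Cryaa*, the alpha-crystallin chaperone and the most abundant of the 10, had 6746, 14696, 333178 and 140420 reads. The gamma-crystallin genes are close copies of each other, and reads between them may be assigned uncertainly.

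The other genes of the lens fiber were described from a list of 12. Of 11 tested, 8 were called higher and 0 lower, and the median over the list was 2.11 in log2. *Tdrd7* had 12.5, 14.9, 81.9 and 36.2 CPM and a log2 fold change of 2.11 (adjusted p = 0.00162 by edgeR), which was 1.4 without Nrf1-CKO replicate 1. *Grifin*, which encodes a lens relative of the galectins, had a log2 fold change of 4.39 (adjusted p = 0.000537 by edgeR), between 3.71 without WT replicate 1 and 5.53 without WT replicate 2. *Caprin2* changed least of those called, by 0.76 (adjusted p = 0.0403 by edgeR), and was no longer called without WT replicate 2, or without Nrf1-CKO replicate 1 at 0.28.

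Not every fiber gene was called. *Epha2* had a log2 fold change of 0.36, below the 1.4-fold threshold, *Lenep* had 0.50 (adjusted p = 0.213 by edgeR), and *Birc7* had 1.38 (adjusted p = 0.367 by edgeR). *Lgsn*, the gene of lengsin, had 0, 0, 0 and 3 reads, so that, like *Dnase2b*, it was at or under the floor in every library. *Birc7* and *Lgsn* were chosen for naming after their values were seen.

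Crystallins and regulators of the lens gave further background. All 16 crystallin genes were called higher, the median being 4.49 in log2, and *Crybb3* (4.58), *Cryba1* (4.51) and *Cryaa* (4.38) were the most abundant. Leaving out Nrf1-CKO replicate 1 brought these 3 to 3.82, 3.64 and 3.63, and leaving out WT replicate 2 to 5.75, 5.47 and 5.21, and *Crybb3* was 3.94 without WT replicate 1. Of 9 transcription factor genes active in the lens, 6 were called higher, with a median of 1.58. *Prox1* had 32.7, 37.3, 68.5 and 47.3 CPM (log2 fold change 0.73, adjusted p = 0.0102 by edgeR), and its call was lost without Nrf1-CKO replicate 1. *Pax6* and *Sox2*, which the retina also expresses, had log2 fold changes of 0.02 and -0.12. Of 8 genes of the lens epithelium, 7 were called higher. Among these *Gja1* had 165, 148, 328 and 329 CPM (log2 fold change 1.07, adjusted p = 0.000105 by edgeR).

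Relatives of the 9 genes were taken from 7 family lists, with 67 genes outside the 9. Of these, 46 were tested, 17 were called higher and 8 lower, beside 12.8% higher and 8.04% lower over all tested genes. Without Nrf1-CKO replicate 1 the number called higher was 11. The median log2 fold change was 0.24.

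Among connexins, 6 of 10 tested relatives were called higher and 1 lower, with 3 higher without Nrf1-CKO replicate 1. Those described here, besides *Gja1*, are *Gja4* (0.87), *Gja5* (0.53) and *Gjb2* (1.10), each called higher in log2 fold change. *Gja5* lost its call without WT replicate 1, and *Gja5* and *Gjb2* lost theirs without Nrf1-CKO replicate 1. *Gja10*, a connexin gene of retinal horizontal cells, was called lower at -1.19 (adjusted p = 0.182 by edgeR), but was -0.30 without WT replicate 1 and also lost its call without Nrf1-CKO replicate 1 or 2. *Gjc1*, at 58.2 and 52.2 CPM on average in WT and Nrf1-CKO, was not called.

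Of the aquaporins other than *Mip*, 4 of 11 were tested, and *Aqp3* (2.24) and *Aqp4* (0.89) were called higher. The water channel *Aqp3* stayed at 1.03 CPM or below and lost its call without Nrf1-CKO replicate 2. *Aqp4*, the water channel of glia, was 1.49 without WT replicate 2 and lost its call without WT replicate 1 or Nrf1-CKO replicate 1. *Aqp1* and *Aqp11* were not called. In the family of *Lim2*, *Emp1* (0.87), *Pmp22* (0.75) and *Emp3* (0.55) were called higher and *Emp2* was not. Without Nrf1-CKO replicate 1 only 1 of these calls was left, and *Emp3* lost its call whichever library was left out.

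The intermediate filament genes outside the keratins moved in both directions. Of 10 relatives of *Bfsp1* and *Bfsp2*, 5 were called lower and 2 higher. The 5 were the genes of neuronal filaments, *Nefl* (-1.95), *Nefm* (-1.38), *Nefh* (-4.45), *Ina* (-1.93) and *Prph* (-2.28). *Nefl*, the light chain of neurofilaments, had 311, 412, 107 and 80.4 CPM (standard error of the log2 fold change 0.16, adjusted p = 0.000129 by edgeR). Without Nrf1-CKO replicate 1, *Nefh* was -5.91 and *Prph* -3.00, and without Nrf1-CKO replicate 2 *Nefh* was -3.74. The genes called higher were *Des* (1.59), the filament of muscle, and *Gfap* (1.53), the filament of glia. *Des* was 0.94 without Nrf1-CKO replicate 1, and *Gfap* was 2.48 without WT replicate 2 and lost its call without WT replicate 1. *Vim*, which both lens and retina express, had 796, 857, 1090 and 1118 CPM, a log2 fold change of 0.42 that was below the threshold of 1.4-fold, and *Nes* was not called.

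Among 11 tested calpain genes, *Capn6* was called higher (1.31) and *Capn11* lower (-1.29), and *Capn11* lost its call when WT replicate 1 or either Nrf1-CKO library was left out. The ubiquitous *Capn2*, *Capn7* and *Capns1*, at averages between 64.4 and 118 CPM, were not called. Of 3 tested nuclease genes, the lysosomal *Dnase2a* was called higher (0.64, adjusted p = 0.109 by edgeR), though not without WT replicate 2, and *Dnase1l1* and *Dnase1l2* were not called. Of 4 tested matrix genes related to *Vit*, *Matn2* (1.72) and *Matn3* (1.98) were called higher and *Coch* (-0.92) lower. *Matn4* had -0.41 and became a call only without Nrf1-CKO replicate 1, at -2.06.

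**Figure D4:**
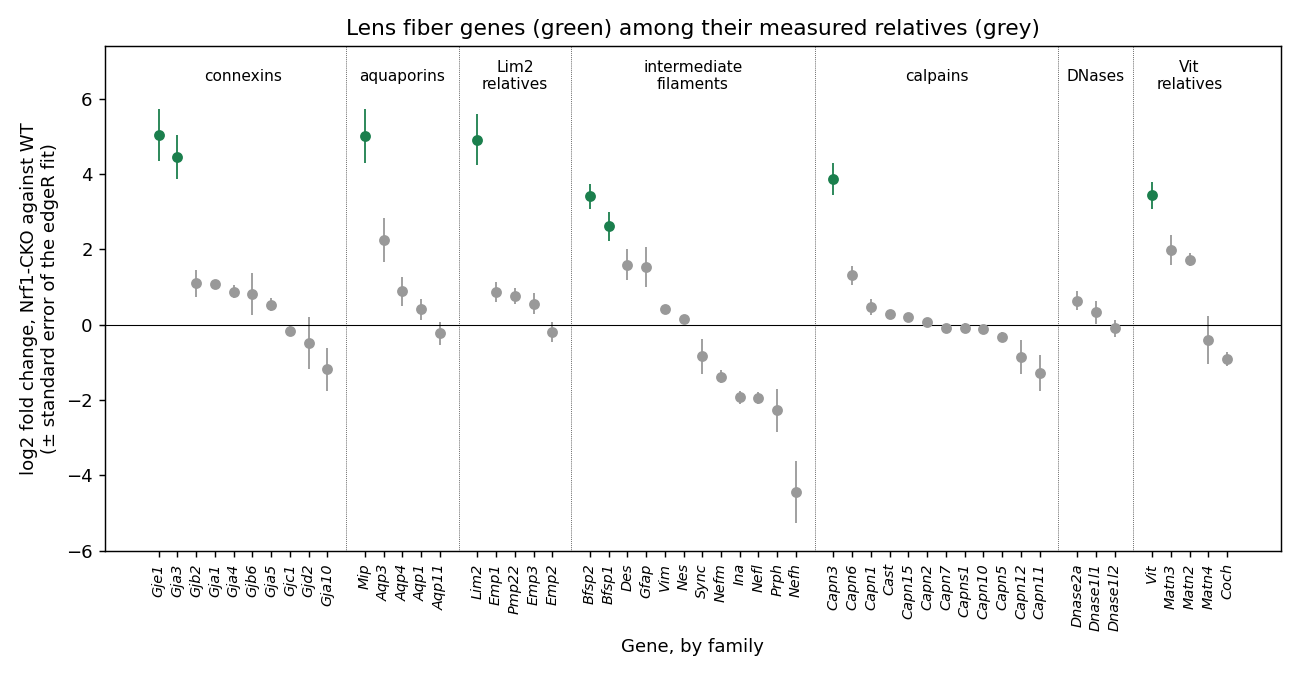
Log2 fold change of Nrf1-CKO against WT, with the standard error of the edgeR fit as bars, for the 8 lens fiber genes with reads (green) and 44 of their tested relatives (grey), grouped by 7 families. In every family with a green point a green point is the highest, from 5.03 for *Gje1* down to 3.41 for *Bfsp2*, and the neuronal filament genes reach -4.45.

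The plot by family sets the genes beside these relatives. The green genes were picked for this contrast, so nothing is read from their place above the relatives. Markers of other tissues near the retina moved with the genotype as well. Of tested genes, 8 of 8 of macrophages and microglia, 5 of 7 of pigment epithelium, 6 of 8 of surface ectoderm and cornea and 5 of 8 of periocular mesenchyme were called higher. Surface ectoderm fell to 2 without WT replicate 2 or Nrf1-CKO replicate 1, and mesenchyme to 3 without WT replicate 2. Macrophage genes summed to 77.7, 73.5, 234 and 283 CPM, pigment epithelium genes to 227, 164, 414 and 439 CPM and mesenchyme genes to 164, 108, 257 and 222 CPM. Of 10 retinal progenitor genes 0 were called higher and 2 lower, and their median was -0.11 in log2. The part of tissue around the retina in the levels of the lens fiber genes was not tested.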

How the data were processed

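RNA-seq of pooled E13.5 retinas was analysed from 2 WT and 2 Nrf1-CKO libraries, grouped by their labels. Reads were mapped to mm10 with TopHat2 and summed per gene with HTSeq by the authors, who deposited whole-number counts for 24062 genes. The summary rows of HTSeq, 74.0% to 75.0% of all entries and mostly alignments that were not unique (54.6% to 58.0%), were left out. Close gene copies therefore lose reads. The authors also deposited normalized values on a log2 scale, in which a count of 0 has the same value in every library. The submitters' processing notes name DESeq and limma, and the step behind these values is not given in the sources used here. They were used only as an alternative. Cuffdiff, which the study names, works from aligned reads and was not run.

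Genes passing filterByExpr at a minimum count of 10 (15762) received TMM factors (0.992 to 1.02). Genotypes were compared in edgeR 4.0.16 (R 4.3.3) by its quasi-likelihood test, adjusted after Benjamini and Hochberg and with genotype as the only term. A call needed 1.4-fold or more and an adjusted p not above 0.2, as in the study's methods. The common biological coefficient of variation was 12.0%. Scripts were tested on simulated data. Ratios between replicates carry 95% exact binomial intervals (scipy), and a count of 0 allows up to 3 reads. RPKM used merged exons of GENCODE M21, and promoters came from RefSeq. Protein sequences were not used here. The 9 genes, the gene lists, the tests and the alternatives were chosen with earlier results of these data known. Genes named in the text are the 9 genes, *Nrf1*, the 10 genes nearest in profile and every called gene of the 7 family lists. The most abundant of each list were named too, where the text describes single genes, up to 6 for other lens fiber genes and up to 3 for the rest. *Ckm*, *Matn4*, *Birc7* and *Lgsn*, among others, were named outside this rule. Results for 2 genes that this rule names are not reported here, though they count in the list totals. Lists overlap, among others in *Gja1*, *Hsf4*, *Foxe3*, *Pitx3*, *Sox2*, *Pax6* and *Des*. Of 7 erythroid genes 4 were tested and 2 called higher (0 without WT replicate 1, and 1 without any other single library), and of 7 endothelial genes 5 were called higher and 1 lower. Alternatives were DESeq2 1.42.0, other scalings and filters, a replicate block, each library left out in turn, and the deposited log2 values tested with limma 3.58.1.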

Additional observations from a re-analysis of the deposited data

How the results depend on the processing

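All 8 lens fiber genes with reads were called higher under each of the 12 alternatives run, and all 96 alternative log2 fold changes were above 0. Nothing is read from this, since the genes were picked for this contrast. In the edgeR fit on the counts, 12.8% of all tested genes were called higher. On the authors' deposited log2 values limma called 945 genes higher and 723 lower, against 2024 and 1268 from edgeR on the counts. The median log2 fold change of the 8 genes was 2.62 in place of 4.16, and among relatives 7 were called higher and 4 lower in place of 17 and 8. The median ratio of the replicates was 1.35 in WT and 2.37 in Nrf1-CKO, in place of 2.76 and 2.68. The log2 ratios spanned 0.866 and 0.818, in place of 2.10 and 0.727. The median range of the level per level of *Mip* was 3.72-fold in place of 4.79-fold.

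Leaving out single libraries moved the median log2 fold change between 3.31 and 4.98 and the number of relatives called higher between 11 and 16. With a replicate block, 1970 genes were called higher and 1256 lower and the median was 4.07. The deviations of libraries with the same number correlated at -0.007 over the tested genes. No shift shared by number was seen, but this cannot tell whether pools of the same number were prepared together. Of 224 alternative values over 22 results, 201 stayed near the main value, 23 moved and 0 reversed. The yardstick was the replicate spread for log2 fold changes and 1.5 times for counts of genes. For median ratios between replicates it was the 95% counting interval. The replicate spread includes the library left out, so a fold change that stays within it says little. The remaining moved values were log2 fold changes of single genes, all still above 0. The 2 pools per genotype and few WT reads, 26 for *Gje1* in WT replicate 1, limit the precision of every ratio.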
